A study of Homo sapiens with 24 samples.

Results

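The B-cell leukemia surface antigens described here are 9 genes whose proteins sit in the plasma membrane of B-lineage cells and are used to recognise, type or target B-cell leukemia: MS4A1 (CD20), CD22, CD24, CD38, MME (CD10), CD9, CD72, CD37 and CXCR4. They were chosen by name, with earlier results of these data known. Every RefSeq accession of the count table that maps to one of these symbols was taken, which gave 32 of the 64519 accessions. Of these, 10 accessions of 5 genes passed the filter on low counts (CPM, counts scaled to library size, above 1 in at least 2 libraries) and were tested, among 10167 tested transcripts in all.

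The libraries came from Nalm6, an established human cell line of B-cell precursor acute lymphoblastic leukemia. Cells carried an shRNA delivered by lentivirus and were selected with puromycin as a population: shNS, a non-specific sequence, or an shRNA against the histone methyltransferases G9a (gene EHMT2) or GLP (gene EHMT1), or against the chromatin reader HP1γ (gene CBX3; shHP1g in the sample labels). Each was treated for 8 h with 100 nM dexamethasone (dex), a synthetic glucocorticoid, or with the vehicle ethanol. This made 8 conditions with 3 biological replicates each, which the extraction protocol places on different days, and 24 libraries of 9289533 to 14387770 counts (median 11132064.5). The labels name 1 shRNA for each protein, and all cells, controls included, carried an shRNA.

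Glucocorticoids are a backbone of treatment for B-cell precursor leukemia and act through the glucocorticoid receptor, which binds DNA and raises or lowers transcription with the help of coregulators such as G9a, GLP and HP1γ. The surface of B-lineage cells, depending on their stage, carries inhibitory co-receptors that restrain the B-cell receptor (CD22 and CD72). It carries tetraspanins that organise membrane proteins into domains (CD9 and CD37) and ectoenzymes (CD38 and MME). It also carries the adhesion molecule CD24 and the chemokine receptor CXCR4, which holds precursors in the marrow niche. MS4A1 normally appears late in B-cell development, whereas CD24 and MME mark precursors.

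Transcript levels were tested as deposited counts with edgeR's quasi-likelihood test in a single model that held all 24 libraries and a term for the replicate number. Where a fit of the compared groups alone, with the same term, changed a call, its value is given and the fit is named the separate fit. A transcript was called at an adjusted p of 0.05 or less (Benjamini-Hochberg, over the 10167 transcripts in the model). Levels are given as normalized CPM, mean ± SD over 3 replicates. They were compared between conditions only, not between genes, since transcript lengths were not used. RNA from whole cultures cannot tell a change in every cell from a change in the share of cells that express a gene.

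The line carried the defining precursor marker RAG1 at 1071 to 2812 CPM and the surrogate light chain gene IGLL1 at 25.3 to 82.9 CPM, while CD79B and DNTT were listed at 0. Of the 5 T-cell markers, 3 (CD3D, CD2 and CD28) were at 0, and the list summed to at most 0.271 CPM. CD3E and CD3G, with 1 accession each, reached at most 0.271 and 0.089 CPM. The erythroid list summed to at most 0.308 CPM, with AHSP at 0, and the fibroblast list to 1.03 to 4.54 CPM. The myeloid list summed to 2.75 to 34.0 CPM with CSF1R, ITGAM and S100A8 at 0. Most of it was LYZ, which stood at 25.8 ± 4.67 CPM in shGLP ethanol against 4.02 ± 1.47 CPM in shNS ethanol. The markers named here at 0 have 2 to 5 accessions each, and a listed 0 does not show that such a gene is silent. Of the depleted genes, EHMT1 (NM_001354259) was at 64.2% of shNS in shGLP ethanol (adjusted p = 0.0923, edgeR) and 77.2% in shGLP dex (adjusted p = 0.410), and CBX3 (NM_016587) was at 71.1% and 65.0% of shNS in shHP1γ ethanol and dex (adjusted p = 0.277 and 0.142). The other tested CBX3 transcript (NM_007276) was at 81.2% and 89.5% (adjusted p = 0.644 and 0.842). These transcripts had few counts per library, 18 to 50 for EHMT1 and 18 to 82 for CBX3. EHMT2 is not analysed here. From immunoblot and RT-qPCR of the cells used for sequencing, the paper reports efficient depletion of G9a, GLP and HP1γ as protein and as mRNA. The dex response was present: FKBP5, a receptor target, went from 8.97 to 29.9 CPM and TSC22D3 from 8.05 to 88.9 CPM in shNS cells.

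CD72 rose with dex in every shRNA and was lower in shG9a cells than in shNS cells with or without dex. CXCR4 rose with dex, and CD9 fell. MME and CD38 passed no test of dex or of depletion against shNS in the model of all libraries, whereas MME passed in the separate fits of dex in shNS and of shGLP against shNS in dex. The promoters of the 3 genes that moved are shown first, each as the 250 bases before its most upstream RefSeq start site (RefSeq, GRCh38.p14), read along the gene's strand. Capitals mark a match to part of the glucocorticoid receptor's recognition element: the hexamer AGAACA, here on the opposite strand as TGTTCT, in CD72 at chr9:35618414-35618663 (minus strand), and its looser core ACANNNTGT in CD9 at chr12:6199696-6199945 (plus strand). CXCR4 at chr2:136118150-136118399 (minus strand) is shown as a window without a match to either, although CXCR4 rose with dex as well.
CD72: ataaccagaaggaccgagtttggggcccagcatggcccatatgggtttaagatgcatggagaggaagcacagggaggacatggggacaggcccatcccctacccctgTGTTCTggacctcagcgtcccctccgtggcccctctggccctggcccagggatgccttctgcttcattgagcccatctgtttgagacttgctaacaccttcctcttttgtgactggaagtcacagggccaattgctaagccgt
CD9: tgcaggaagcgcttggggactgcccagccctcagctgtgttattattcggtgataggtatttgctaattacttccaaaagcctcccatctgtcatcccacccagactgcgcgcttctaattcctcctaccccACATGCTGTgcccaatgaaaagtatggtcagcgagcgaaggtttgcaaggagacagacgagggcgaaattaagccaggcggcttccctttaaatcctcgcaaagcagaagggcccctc
CXCR4: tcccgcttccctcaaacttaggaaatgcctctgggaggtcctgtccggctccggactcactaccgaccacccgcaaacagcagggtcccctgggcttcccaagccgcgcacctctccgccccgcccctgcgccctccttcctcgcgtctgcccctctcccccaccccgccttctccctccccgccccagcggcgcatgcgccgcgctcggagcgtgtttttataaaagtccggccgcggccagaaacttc

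The CD72 hexamer begins 143 bases before the start site, and the CD9 core 118 bases before it. The search covered both strands of 17 windows of 300 bases for 7 of the genes. The full element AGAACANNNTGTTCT was in 0 of them and in 0.00285% of 35116 promoter windows of the same length. The hexamer was in 2 (CD72 and CD24), against 14.8% of all windows. The core, which the full element contains, was in 1 of the 4 CD9 windows and in no other, against 5.37%. A match of this kind describes the letters of the window only.

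CD72 is a type II membrane protein with a C-type lectin domain that recruits the phosphatase SHP-1 and dampens B-cell receptor signalling. Its gene lies at chr9:35609979-35646807 on the minus strand (GRCh37), where it overlaps TESK1 and 2 long noncoding RNA genes on the plus strand. It was the only antigen counted on a single accession (NM_001782), with 722 to 2824 counts per library. In shNS cells the ethanol libraries of replicates 1, 2 and 3 held 150.5, 125.0 and 106.5 CPM, and the dex libraries 259.6, 231.9 and 202.9 CPM. The dex values all lay above the ethanol values, and replicate 1 was the highest in both treatments. The means were 127 ± 22.1 and 232 ± 28.3 CPM (n = 3), a rise of 0.87 on the log2 scale (edgeR, adjusted p = 7.77e-06, standard error 0.11).

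**Figure D1:**
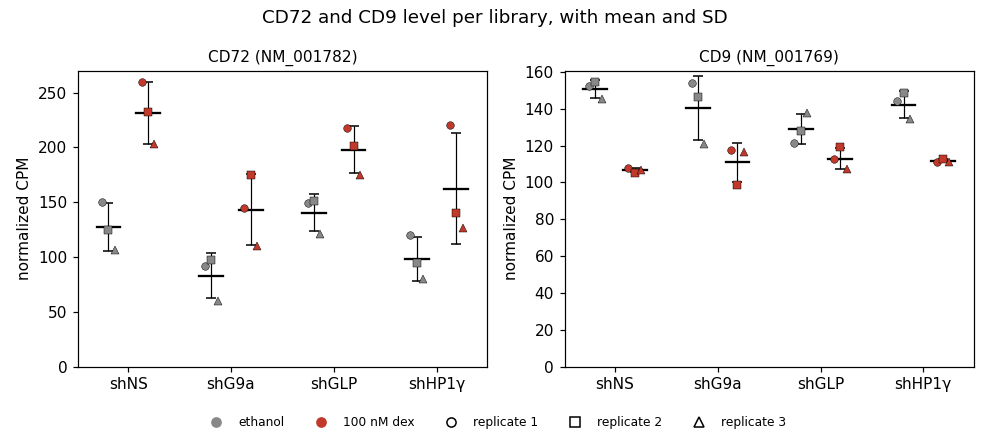
Normalized CPM of CD72 and of the main CD9 transcript in each of the 24 libraries, grouped by shRNA, with ethanol in grey and 100 nM dex in red, replicates as symbols, and mean and SD as bars. Every dex library of CD72 lies above every ethanol library of the same shRNA, the CD9 libraries run the other way, and the CD72 points for shG9a lie below those for shNS in both treatments.

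In shG9a cells CD72 stood at 91.7, 97.3 and 59.7 CPM in ethanol and at 144.7, 174.5 and 110.1 CPM in dex. These groups did not overlap either, and the rise was 0.80 on the log2 scale (adjusted p = 7.39e-05, edgeR). In shGLP cells the values were 149.1, 150.7 and 120.9 CPM in ethanol and 217.4, 200.9 and 175.0 CPM in dex, a rise of 0.50 (adjusted p = 0.0119, edgeR). In shHP1γ cells they were 119.6, 94.7 and 79.7 CPM in ethanol and 220.3, 140.4 and 126.4 CPM in dex, a rise of 0.72 (adjusted p = 0.000307, edgeR), with the dex library of replicate 1 well above the other two. All 12 pairs of libraries of the same shRNA and replicate number moved upward. Averaged over the 4 shRNAs, the dex response of CD72 was 0.72 (95% interval 0.60 to 0.84, adjusted p = 1.06e-09, edgeR). The call in shGLP was lost without the shGLP ethanol library of replicate 1 or the shGLP dex library of replicate 3, and without the replicate term (adjusted p = 0.406). In shHP1γ the adjusted p without the replicate term was 0.0883.

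Depletion of G9a went with a lower CD72 level. In dex the 3 shG9a libraries (110.1 to 174.5 CPM) lay below the 3 shNS libraries (202.9 to 259.6 CPM), a mean of 61.8% of shNS and a log2 difference of -0.70 (edgeR, adjusted p = 0.000252, standard error 0.11). In ethanol the shG9a libraries (59.7 to 97.3 CPM) again lay below the shNS libraries (106.5 to 150.5 CPM), with a log2 difference of -0.63 (adjusted p = 0.00206, edgeR). The dex response itself differed little between these cells: shG9a minus shNS was -0.07 (95% interval -0.41 to 0.26, adjusted p = 0.947). Of the B-precursor markers, CD79A and RAG1 differed as well, by range and without a test. CD79A, a chain of the B-cell receptor, lay lower in every shG9a library than in the shNS libraries, at 7.35 to 8.28 against 9.93 to 11.8 CPM in ethanol and at 1.37 to 7.51 against 8.33 to 11.9 CPM in dex. RAG1 lay higher, at 2223 to 2812 against 1566 to 1718 CPM in ethanol and at 2092 to 2154 against 1486 to 1673 CPM in dex. IGLL1 overlapped shNS, at 50.2 to 65.3 against 61.4 to 74.3 CPM in ethanol. In dex it stood at 25.3 to 59.5 against 58.9 to 62.0 CPM. RAG1 means in ethanol and dex were 1641 and 1585 CPM in shNS, 2409 and 2529 in shGLP, and 1291 and 1290 in shHP1γ cells. The part of these markers in the CD72 difference was not tested. The shG9a dex library of replicate 2 had the lowest CD79A and IGLL1 of all libraries (1.37 and 25.3 CPM), and without it CD72 was still called.

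shHP1γ cells in dex held CD72 at 70.2% of shNS, a log2 difference of -0.53 (adjusted p = 0.0055, edgeR), although the ranges overlapped (126.4 to 220.3 CPM against 202.9 to 259.6 CPM), and each of the 3 libraries was below the shNS library of its replicate number. In ethanol the difference was -0.38 (95% interval -0.62 to -0.14, adjusted p = 0.0784, edgeR, and 0.0307 in the separate fit). The shHP1γ call in dex was lost without the shHP1γ dex library of replicate 2. For shGLP the differences from shNS were -0.23 in dex (95% interval -0.46 to 0.01, adjusted p = 0.316, and 0.000464 in the separate fit) and 0.15 in ethanol (95% interval -0.09 to 0.38, adjusted p = 0.684). The calls against shNS for shG9a in both treatments and for shHP1γ in dex were lost when all libraries of replicate 3 were left out and when the replicate term was dropped (adjusted p = 0.0635, 0.205 and 0.300 without the term).

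The depletions were also compared with each other, which leaves out the shNS means. The shNS libraries still entered the shared model of all 24 libraries. CD72 was lower in shG9a than in shGLP cells, by -0.47 on the log2 scale in dex (adjusted p = 0.00891, edgeR) and by -0.78 in ethanol (adjusted p = 0.000123), with no overlap in either treatment. It was lower in shHP1γ than in shGLP cells in ethanol, by -0.53 (adjusted p = 0.00713), and the difference in dex was -0.31 (adjusted p = 0.168). Between shG9a and shHP1γ the differences were -0.17 in dex (95% interval -0.40 to 0.07) and -0.25 in ethanol (95% interval -0.49 to 0.00). The 3 calls were lost without the replicate term (adjusted p = 0.242, 0.0508 and 0.307) and when all libraries of replicate 3 were left out. The call in dex between shG9a and shGLP was also lost without the shG9a dex library of replicate 1 or the shGLP dex library of replicate 3, and that between shHP1γ and shGLP without the shHP1γ ethanol library of replicate 2 or the shGLP ethanol library of replicate 3.

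Ordered from low to high, the 8 CD72 means ran from shG9a ethanol (82.9 CPM) through shHP1γ ethanol (98.0), shNS ethanol (127), shGLP ethanol (140), shG9a dex (143), shHP1γ dex (162) and shGLP dex (198) to shNS dex (232 CPM). Each neighbouring pair in this order overlapped in its ranges. Across the 24 libraries with the replicate means removed, the transcripts most alike CD72 in log2 CPM were BTG2 (Pearson's r = 0.924), an antiproliferative gene, and LINC00938 (r = 0.905). These points share the dex treatment and are a description of these libraries.

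CD22, the other inhibitory co-receptor, binds sialic acid and is a target of antibody therapy. Its gene lies at chr19:35810164-35838264 on the plus strand. All 5 of its accessions were listed at 0 in every library.

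CD9 is a tetraspanin that associates with integrins and with other tetraspanins, and its gene lies at chr12:6308881-6347437 on the plus strand. The main transcript (NM_001769) had 1064 to 1757 counts per library. In shNS cells it stood at 152.4, 154.3 and 145.3 CPM in ethanol and at 107.6, 105.4 and 107.0 CPM in dex. The groups were far apart relative to their spread (151 ± 4.69 and 107 ± 1.17 CPM, n = 3), and CD9 fell by 0.50 on the log2 scale (adjusted p = 7.56e-05, edgeR). It also fell in shG9a (-0.34, adjusted p = 0.00847) and in shHP1γ (-0.35, adjusted p = 0.00901). In shGLP the means were 129 ± 7.99 and 113 ± 5.99 CPM, a log2 change of -0.19 (adjusted p = 0.224, edgeR). In the separate fits the call in shG9a was lost (adjusted p = 0.229) and the change in shGLP was called (adjusted p = 0.0259). In each shRNA the dex libraries lay below the ethanol libraries without overlap, and the average over the 4 was -0.34 (95% interval -0.42 to -0.26, adjusted p = 3.04e-07).

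The dex responses of CD9 in shGLP and shNS differed by 0.30 (95% interval 0.08 to 0.53), which did not pass the adjustment (adjusted p = 0.947, edgeR) but did in the separate fit (adjusted p = 0.0347). The ethanol level of shGLP cells was 85.7% of that of shNS cells, with no overlap (121.6 to 137.5 CPM against 145.3 to 154.3 CPM). This was not called in the model of all libraries (adjusted p = 0.141, edgeR). It was called in the separate fit (adjusted p = 0.0112) and without the shG9a dex library of replicate 2. In dex the 4 means lay between 107 and 113 CPM, and their differences from shNS were 0.06, 0.08 and 0.07 on the log2 scale for shG9a, shGLP and shHP1γ. The call in shG9a was lost without either of the shG9a ethanol libraries of replicates 1 and 2, or the shG9a dex library of replicate 2, and the call in shHP1γ without the shHP1γ ethanol library of replicate 2. The call in shNS held without each library in turn. A second CD9 transcript (NM_001330312) had 18 to 47 counts per library and passed no test with all libraries in the model. Without the shHP1γ dex library of replicate 1 its difference between shG9a and shNS in dex was called. Its dex response averaged -0.07 (95% interval -0.34 to 0.20), and its libraries did not follow the main transcript (r = 0.174 over 24 libraries). HIRA, a histone chaperone gene (r = 0.905), and EDEM1, of endoplasmic reticulum degradation (r = 0.892), were the transcripts most alike the main one.

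CD37, the other tetraspanin of the set and a target of antibodies against B-cell tumours, lies at chr19:49838428-49846592 on the plus strand and overlaps TEAD2 on the minus strand. Both of its accessions were listed at 0.

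CXCR4 is the receptor for CXCL12, a G-protein-coupled receptor that retains B-cell precursors in the bone marrow. Its gene lies at chr2:136871919-136876747 on the minus strand. Of its 5 accessions, 3 were tested, NM_003467 and NM_001348059 were listed at 0, and reads shared by transcripts of the gene could be split between them or lost, so the 3 were not treated as independent. The most abundant (NM_001348060) had 52 to 172 counts per library. In shNS cells it stood at 6.07, 5.15 and 7.22 CPM in ethanol and at 9.01, 9.02 and 10.9 CPM in dex, without overlap. The rise was 0.65 on the log2 scale (adjusted p = 0.022, edgeR), with 0.88 in shG9a (adjusted p = 0.00385), 0.74 in shGLP (adjusted p = 0.0272) and 0.70 in shHP1γ (adjusted p = 0.0284).

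**Figure D2:**
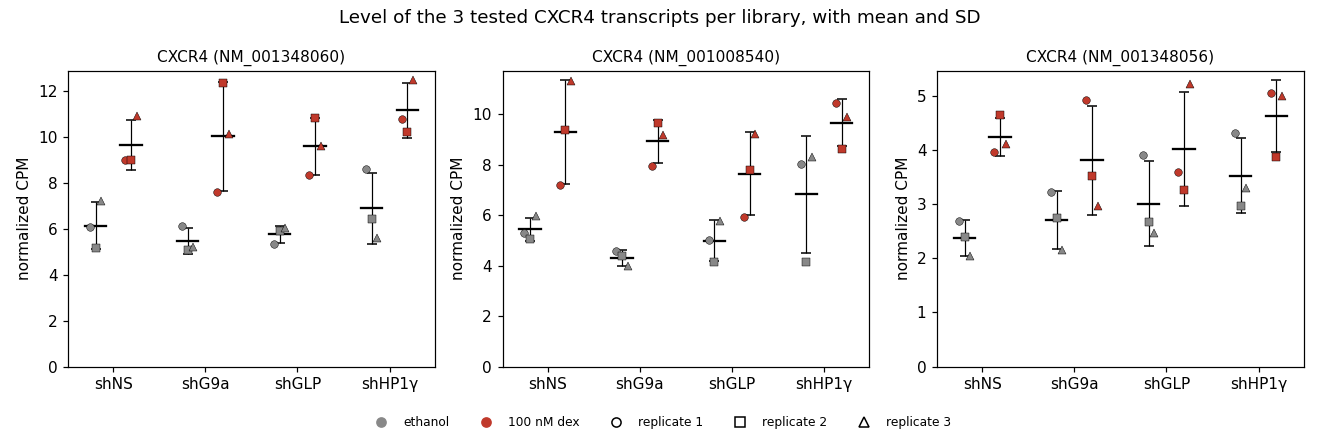
Normalized CPM of the 3 tested CXCR4 transcripts in each library, grouped by shRNA, with ethanol in grey and 100 nM dex in red, replicates as symbols, and mean and SD as bars. For the first 2 transcripts the dex libraries lie above the ethanol libraries in all 4 shRNAs, and for the third, with 24 to 57 counts per library, they overlap in all shRNAs but shNS.

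The second transcript (NM_001008540) went from 5.43 ± 0.46 to 9.28 ± 2.07 CPM in shNS (0.77, adjusted p = 0.00906, edgeR) and from 4.31 ± 0.314 to 8.91 ± 0.87 CPM in shG9a (1.06, adjusted p = 0.00145). Its changes in shGLP and shHP1γ were 0.62 (adjusted p = 0.103) and 0.51 (adjusted p = 0.185), and both were called in the separate fits (adjusted p = 0.012 and 0.0494). The third (NM_001348056) rose in shNS (0.85, adjusted p = 0.0136), and its changes in the other shRNAs were 0.39 to 0.49 and were not called. The average dex response over the 4 shRNAs was 0.74, 0.74 and 0.54 for the 3 transcripts (adjusted p = 1.48e-06, 3.76e-06 and 0.00062). When the counts of all accessions were summed for the gene, CXCR4 rose in shNS (0.75, adjusted p = 0.000691), shG9a (0.87, adjusted p = 0.000295), shGLP (0.64, adjusted p = 0.0104) and shHP1γ (0.57, adjusted p = 0.0183).

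None of the CXCR4 transcripts was called as different from shNS in any depletion by this test. The third transcript in shHP1γ ethanol stood 0.57 above shNS (95% interval 0.09 to 1.05, adjusted p = 0.235, edgeR), without overlap. For the most abundant one the differences in dex were 0.06 (95% interval -0.29 to 0.41) for shG9a, 0.00 (-0.36 to 0.36) for shGLP and 0.21 (-0.14 to 0.56) for shHP1γ. The 8 means of this transcript fell into the 4 ethanol values, 5.47 to 6.89 CPM, and the 4 dex values, 9.60 to 11.2 CPM. At 52 to 172 counts the calls of single transcripts rested on few libraries: those of NM_001348060 were lost without the shNS ethanol library of replicate 1 or 2 or the shNS dex library of replicate 3 in shNS, without the shGLP ethanol library of replicate 1, 2 or 3 or the dex library of replicate 2 or 3 in shGLP, and without the shHP1γ dex library of replicate 1 or 3 or the ethanol library of replicate 2 or 3 in shHP1γ. In shG9a the call held without each single library but was lost without all libraries of replicate 2 or of replicate 3 and in the separate fit (adjusted p = 0.131, edgeR). The shNS call of NM_001008540 was lost without the shNS dex library of replicate 2 or 3, and that of NM_001348056 without the shNS ethanol library of replicate 1 or 3 or the shNS dex library of replicate 2 or 3. The averaged responses of the 3 transcripts held without each library in turn. SMAP2, a regulator of vesicle traffic (r = 0.918), and LOC400553 (r = 0.907) were the transcripts of other genes most alike the most abundant one, beside 0.863 and 0.695 for the other CXCR4 transcripts.

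The ectoenzymes MME and CD38 had no called dex response in the model of all libraries. MME, the neutral endopeptidase CD10 and the common antigen of acute lymphoblastic leukemia, lies at chr3:154741913-154901493 on the plus strand and overlaps MME-AS1 on the minus strand. Its main transcript (NM_001354644), with 150 to 415 counts per library, held 18.7, 16.6 and 18.4 CPM in shNS ethanol and 15.4, 13.6 and 13.2 CPM in shNS dex, a log2 change of -0.35 (95% interval -0.80 to 0.10, adjusted p = 0.392, edgeR). The groups did not overlap, all 3 pairs were lower with dex, and the separate fit called the change (adjusted p = 0.0124). In shHP1γ cells replicate 1 stood apart, with 35.6 CPM in ethanol and 36.7 CPM in dex against 14.9 to 20.8 CPM in the other 4 libraries. The differences from shNS in dex were 0.57 in shGLP (95% interval 0.12 to 1.01, adjusted p = 0.148, and 0.000109 in the separate fit) and 0.62 in shHP1γ (95% interval 0.18 to 1.06, adjusted p = 0.114). Without the shHP1γ dex library of replicate 1 the shGLP difference was called, as were the dex response in shHP1γ and the averaged one, and without that of replicate 2 the shHP1γ difference was called.

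Of the 2 minor MME transcripts, NM_000902 (14 to 39 counts) passed no test, and NM_007287 (20 to 52 counts) was lower in shG9a than in shGLP cells in dex (2.27 ± 0.99 against 4.21 ± 1.41 CPM, log2 difference -0.90, adjusted p = 0.0363, edgeR), with overlapping ranges. That call was lost without the shGLP dex library of replicate 1 or 2, without the shG9a dex library of replicate 2 or 3, and in the separate fit (adjusted p = 0.143).

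CD38, which makes and breaks down cyclic ADP-ribose from NAD and is a target of antibody therapy, lies at chr4:15779898-15854855 on the plus strand. Its transcript NM_001775 had 14 to 58 counts per library and a second accession was at 0. The means ranged from 2.30 ± 1.27 CPM in shG9a dex to 3.22 ± 0.423 CPM in shGLP dex, and the 8 conditions overlapped with their neighbours in order of level. The averaged dex response was 0.03 (95% interval -0.33 to 0.39, adjusted p = 0.927). Replicate 1 of shHP1γ was the highest of all libraries in both treatments (5.24 and 5.13 CPM), as it was for MME.

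MS4A1, CD24, CD22 and CD37 gave no tested transcript. MS4A1 lies at chr11:60223319-60238225 on the plus strand. One of its 2 accessions held 7 counts over 5 libraries and the other 0. CD24, a small glycosylphosphatidylinositol-anchored protein with pseudogene copies in the genome, had 1 count in 1 library over 6 accessions. In all, 19 of the 32 antigen accessions were at 0 in every library and 3 had counts but missed the filter. In each library 3 counts correspond to 0.209 to 0.323 CPM.

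A listed 0 in this table does not show that a gene is silent. Of genes with 1 protein-coding accession, 38.8% had at most 3 counts in every library and 52.1% had a tested accession. With 2 accessions these shares were 54.1% and 31.0%, with 3 to 5 they were 56.7% and 24.9%, and with 6 or more 57.6% and 21.7%. Among 11 genes that cells use throughout, the 4 with 1 accession (ACTB, B2M, HPRT1 and PGK1) had from 1597 counts in a library to 139178. The 7 with more had at most 503, with 233 to 503 for YWHAZ (6 accessions), 175 to 288 for PPIA (2), 55 to 88 for TBP (2), 24 to 63 for GAPDH (4), 10 to 33 for RPLP0 (2) and 0 for SDHA (3) and GUSB (5). Among the antigens, CD72 with 1 accession had 39777 counts in total, CD9 with 2 had 34316, MME with 7 had 6629, CXCR4 with 5 had 5079 and CD38 with 2 had 743. The 4 without a tested transcript have 2 to 6 accessions. The part of accession number in these zeros was not tested.

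**Figure D3:**
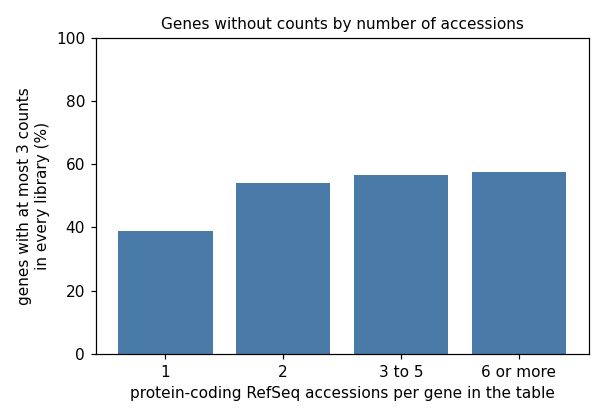
Share of genes, in percent, with at most 3 counts in every library, by the number of protein-coding RefSeq accessions the gene has in the count table (8661 genes with 1, 4211 with 2, 4499 with 3 to 5 and 1569 with 6 or more). The share is 38.8% for genes with 1 accession and 54.1% to 57.6% for genes with more.

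Read across the 10 tested transcripts, the dex response in shNS cells passed the test for 5 (CD72 and 3 CXCR4 transcripts up, CD9 down), where 9.95% of all tested transcripts were called, 4.49% upward and 5.46% downward. In shG9a 4 were called, against 6.24% of all, in shGLP 2, against 3.29%, and in shHP1γ 3, against 3.22%. The separate fits called 6, 2, 4 and 4 in the 4 shRNAs. In the average over the 4 shRNAs 5 were called, against 23.8%. The median log2 change of the 10 was 0.25, -0.12, 0.36 and -0.01 in the 4 shRNAs, beside -0.03, 0.00, -0.01 and -0.01 over all tested transcripts. These 10 are transcripts of 5 genes, 3 of them of CXCR4. The genes were chosen with earlier results of these data known, so the counts beside these shares are a description only.

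**Figure D4:**
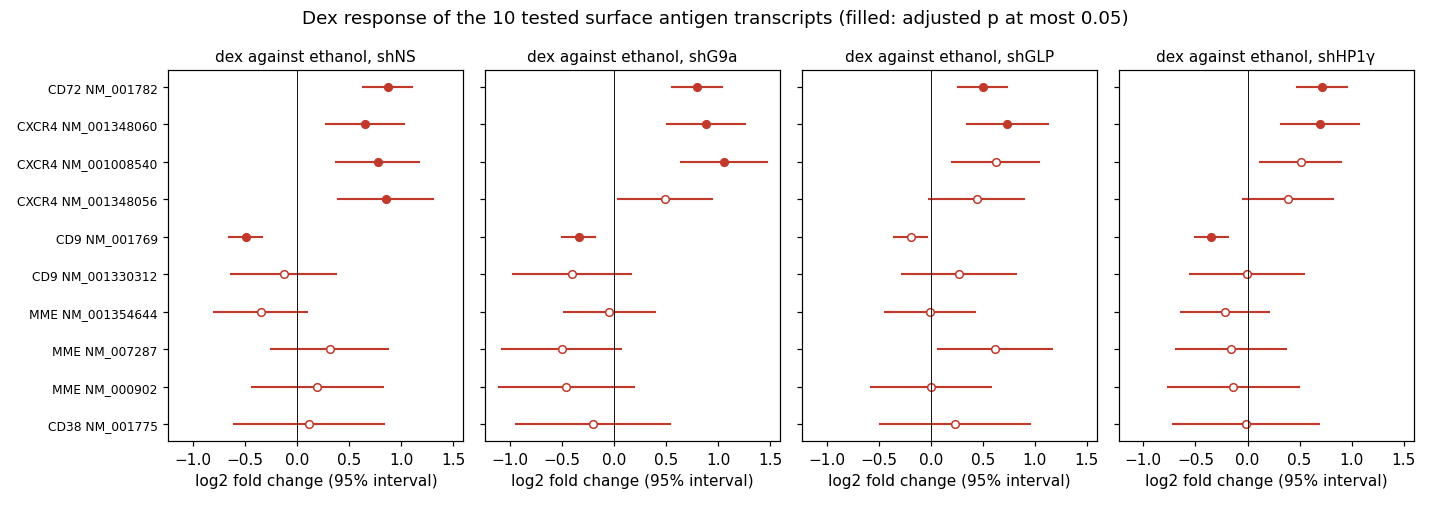
Log2 fold change of dex against ethanol for the 10 tested transcripts in each shRNA, with 95% intervals, filled where the adjusted p is at most 0.05. CD72 and the first CXCR4 transcript are filled on the right in all 4 panels, and the main CD9 transcript is filled on the left in all but shGLP, where it lies at -0.19.

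Against shNS, depletion of G9a called 1 of 10 in dex (8.8% of all tested transcripts) and 1 of 10 in ethanol (3.73%), both CD72. Depletion of HP1γ called 1 in dex (4.09%), again CD72, and 0 in ethanol (2.91%), where 4 transcripts had an unadjusted p under 0.05, DESeq2 and the separate fit called 1 each and limma 0. Depletion of GLP called 0 in dex (5.77%) and 0 in ethanol (3.61%) by edgeR, with 1 unadjusted p under 0.05 in each and 0 calls by DESeq2 and by limma. The separate fits called 2 in dex (MME and CD72) and 1 in ethanol (CD9), and a factor of unwanted variation in place of the replicate term called the same 2 in dex. In the comparisons among depletions, shG9a against shGLP called 2 in dex (8.62%) and 1 in ethanol (6.23%), and shHP1γ against shGLP 0 in dex (4.02%) and 1 in ethanol (4.2%). Between shG9a and shHP1γ 0 were called in dex (6.43%) and 0 in ethanol (6.07%), with 1 and 3 unadjusted p under 0.05 and 0 calls by DESeq2 and by limma.

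**Figure D5:**
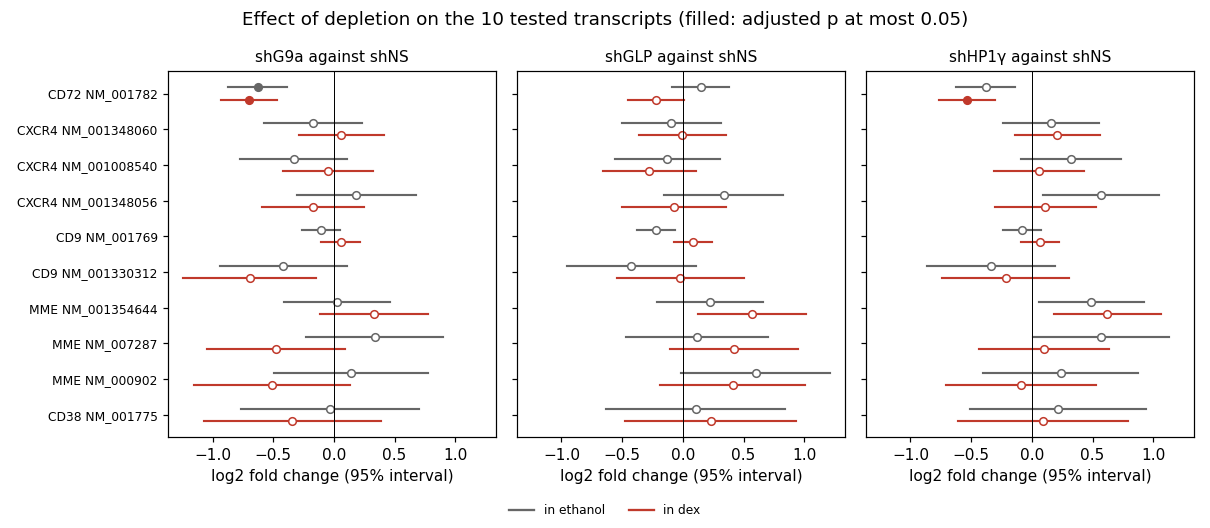
Log2 difference of each depletion from shNS for the 10 tested transcripts, with 95% intervals, in ethanol (grey) and dex (red), filled where the adjusted p is at most 0.05. CD72 is filled for shG9a in both treatments and for shHP1γ in dex, and no other transcript is filled.

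In the model of all libraries no antigen's dex response was called as different between a depletion and shNS by edgeR's test of that difference: 0 of 10 were called for shG9a, shGLP and shHP1γ, where 0.0885%, 0.118% and 0.0197% of all tested transcripts were. The unadjusted p was under 0.05 for 1, 2 and 0 of them, and DESeq2 and limma called 0. The widest of these differences for CD72 was -0.37 in shGLP (95% interval -0.70 to -0.04, adjusted p = 1.0, edgeR). The separate fit of shGLP and shNS called this difference (adjusted p = 0.0028) and that of CD9 (adjusted p = 0.0347).

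Other genes of the same kinds were taken from lists chosen by function, also with earlier results of these data known. Their medians stand beside a median of -0.03 over all tested transcripts with dex in shNS. Their counts stand beside 9.95% called (4.49% higher and 5.46% lower). Of 26 other B-lineage surface antigens, 10 genes (11 transcripts) were tested and 3 transcripts were called with dex in shNS, 2 up (CD69 and TNFRSF13C) and 1 down (CD180), with a list median of 0.39 on the log2 scale. CD69, an early activation antigen, rose from 8.76 ± 1.53 to 30.4 ± 2.96 CPM (log2 change 1.80, adjusted p = 1.43e-06, edgeR) and rose in each depletion by 1.01 to 1.12. CD180, a Toll-like receptor homologue, fell in shNS by 0.78 (adjusted p = 1.04e-07) and was higher in shGLP than in shNS cells in dex (82.5 ± 12.7 against 28.4 ± 4.38 CPM, adjusted p = 2.43e-12). CD52, the target of alemtuzumab, was higher in shG9a than in shNS cells in dex by 1.10 (adjusted p = 5e-05). Of 24 leukemia-associated and progenitor antigens 7 transcripts were tested, and dex in shNS raised 2 (CD58 and ADGRE5) and lowered IL7R, the interleukin-7 receptor chain, from 33.3 ± 1.86 to 15.8 ± 0.65 CPM (adjusted p = 7.62e-07, list median 0.06).

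In the smaller lists 1 call is close to the 9.95% called over all tested transcripts and says nothing particular of the list. Among 9 tested tetraspanin transcripts beside CD9 and CD37, 1 fell with dex in shNS (TSPAN13, list median -0.09). CD81, a broadly expressed tetraspanin, was higher than in shNS in all 3 depletions in dex, by 0.83, 1.24 and 0.84 in shG9a, shGLP and shHP1γ (adjusted p = 0.00467, 5.71e-05 and 0.0066, edgeR). Of 7 transcripts of inhibitory receptors and their phosphatases, 1 rose with dex in shNS, a noncoding transcript of LAIR1 (NR_110280), a collagen receptor (0.88, adjusted p = 0.00203, list median -0.13). Of 18 transcripts of CXCR4 signalling, trafficking and homing, 3 fell with dex in shNS and 0 rose: RGS16 (-0.70, adjusted p = 8.7e-08) and RGS14 (-0.56, adjusted p = 0.0161), which switch off G-protein signals, and GRK5 (-0.39, adjusted p = 0.00642), a receptor kinase. The list median was 0.05. RGS16 fell in the 3 depletions as well, by 0.48 to 0.56. Of 6 ectoenzyme transcripts, 1 fell, NAMPT, of NAD synthesis (-0.25, adjusted p = 0.00112, list median -0.13). Of 11 transcripts of B-lineage transcription factors, 4 were called in shNS, 1 up (a noncoding IRF4 transcript) and 3 down (POU2AF1, RUNX1 and LEF1), with a list median of -0.39 and POU2AF1, a B-cell coactivator, at -0.43 (adjusted p = 0.000141). Against shNS in dex, POU2AF1 was higher in shGLP (0.68, adjusted p = 8.72e-07) and shHP1γ cells (0.39, adjusted p = 0.00122), and IRF8, a factor of B-cell and myeloid development, was higher in shGLP cells (1.20, adjusted p = 3.04e-05). TNFRSF13C, TSPAN13, LEF1 and IRF4 fall outside the rule for named genes and were named after their values were seen.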

How the data were processed

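RNA-seq of 24 Nalm6 libraries (8 conditions, 3 replicates) was analysed. Counts per RefSeq accession were made by the authors by HISAT2 mapping of trimmed reads to GRCh37 (hg19) and counting with GenomicAlignments. CPM stands in the name of the deposited table, yet it holds whole numbers whose totals differ between libraries, and these were used as raw counts. Not given in the sources used here are the counting mode, the strand setting and the release of RefSeq. A table of the authors' log2 fold changes and FDR values was used for its pairs of accession and symbol only. Of 64519 accessions, 9872 took their symbol from it, 53873 from RefSeq and 774 had none.

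The test was that of edgeR 4.0.16 under R 4.3.3 (quasi-likelihood test, upper quartile factors, CPM above 1 in at least 2 libraries, 10167 transcripts), in a model of the 8 groups plus the replicate number. Per the labels, replicates of a condition were made on different days, and whether a number marks the same day in every condition is not stated. Deviations from group means correlated with r of 0.0122 to 0.535 over 84 pairs of the same number (median 0.147). Replicates of a group differed by a chi-squared of 3.69 to 43.2 per degree of freedom, so none was a duplicate. The test was checked on counts simulated without a replicate effect, so the check does not cover calls that depend on the replicate term. Alternatives used DESeq2 1.42.0, limma 3.58.1 on log2(CPM + 1), TMM factors, other filters, gene sums, other models and left-out libraries.

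The antigens and gene lists were chosen with earlier results of these data known. All antigen accessions are accounted for. From each other list up to 3 transcripts with the smallest adjusted p among called ones are named, and for each called antigen the 2 transcripts most alike over the libraries. The comparisons among depletions, the averaged dex response, the single left-out libraries and the core ACANNNTGT were added after the data were seen. Promoter windows came from RefSeq (GRCh38.p14), gene positions from GRCh37. Floors and intervals cover counting error or replicate spread only. Some of the marker genes are not reported here.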

Additional observations from a re-analysis of the deposited data

Results flagged for a closer look

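Among the antigens and the transcripts named from the other lists, 1 had a dex response that differed between shRNAs by the test of that difference. CD180 (NM_005582) changed with dex by -0.78 on the log2 scale in shNS cells (48.7 ± 6.35 to 28.4 ± 4.38 CPM, n = 3) and by -0.18 in shGLP cells (93.2 ± 8.53 to 82.5 ± 12.7 CPM), a difference of 0.60 (edgeR, adjusted p = 0.0122). It is not one of the 9 antigens. Groups of 3 libraries were not searched for single libraries far from the others.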

How the results depend on the processing

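The values below are counts of the 10 tested antigen transcripts that were called. Without the replicate block, the counts were 1 in place of 2 for dex in shGLP, 1 in place of 3 for dex in shHP1γ, 0 in place of 1 for shG9a against shNS in dex and in ethanol and for shHP1γ against shNS in dex, and 0 in place of 2, 1 and 1 for shG9a against shGLP in dex and in ethanol and shHP1γ against shGLP in ethanol. With a factor of unwanted variation in place of the replicate block, they were 2 for shGLP and 2 for shHP1γ against shNS in dex, 1 for shHP1γ against shNS in ethanol, 1 for shG9a against shGLP in dex, 1 for shHP1γ against shGLP in dex and 1 for shG9a against shHP1γ in ethanol. With only the compared groups and the replicate block, they were 6 for dex in shNS, 2 in shG9a, 4 in shGLP and 4 in shHP1γ, 2 and 1 for shGLP against shNS in dex and ethanol, 1 for shHP1γ against shNS in ethanol, 1 for shG9a against shGLP in dex, and 2 for the difference of the dex response between shGLP and shNS (CD72 and CD9). Without the filter, they were 1 for shGLP and 2 for shHP1γ against shNS in dex, 1 for shHP1γ against shNS in ethanol and 1 for shHP1γ against shGLP in dex. DESeq2 gave 1 for shHP1γ against shNS in ethanol, and a mean of at least 5 CPM gave 1 for shG9a against shGLP in dex. Sums per gene gave 3 for dex in shNS, 3 for the averaged response and 1 for shG9a against shGLP in dex, since transcripts of a gene then count as 1.

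Leaving out a replicate number or a library gave 2 to 5 for dex in shNS, 2 to 4 in shG9a, 0 to 3 in shGLP and 1 to 3 in shHP1γ, 5 to 6 for the average, 0 to 2 for shG9a against shNS in dex, and 0 to 1 for shGLP and shHP1γ against shNS in dex and for shG9a, shGLP and shHP1γ against shNS in ethanol. Among depletions it gave 0 to 2 for shG9a against shGLP in dex, 0 to 1 for shG9a against shHP1γ and shHP1γ against shGLP in dex, 0 to 1 for shG9a against shGLP and shHP1γ against shGLP in ethanol, and 0 to 2 for shG9a against shHP1γ in ethanol. The count for dex in shNS was 3 without the shNS ethanol library of replicate 1 or the shNS dex library of replicate 2, and 2 without the shNS dex library of replicate 3. That for dex in shGLP was 0 without the shGLP ethanol library of replicate 1 or the shGLP dex library of replicate 3, and that for dex in shHP1γ was 1 without the shHP1γ ethanol library of replicate 2. Of 26 called values of single transcripts, 0 changed direction in any setting and 8 kept the call in all. The difference of CD72 between shG9a and shHP1γ in dex, which was not called, was -0.17 and ranged from -0.41 to 0.083 over the left-out replicates and libraries, turning positive without replicate 1 and without the shHP1γ dex library of replicate 1. Except by the construction of the gene sums, the cause of these changes was not tested. CD38, with 14 to 58 counts per library, had the largest standard error of the 10 in every comparison. A minor MME transcript (NM_000902) had fewer counts, 14 to 39, and a smaller standard error. The source of the difference was not tested.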
